A study of Mus musculus with 4 samples.

Results

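Complex III of the respiratory chain, also called the cytochrome bc1 complex, was followed at the transcript level through 10 nuclear genes in microglia of a mouse model of Alzheimer's disease with and without the gene asrij (Ociad1). The genes were chosen by symbol: the 7 subunits Uqcrc1, Uqcrc2, Uqcrfs1, Uqcrb, Uqcrq, Uqcrh and Cyc1, and the 3 assembly factors Bcs1l, Lyrm7 and Ttc19. All 10 were found among the 49993 genes of the count tables, and all 10 passed the filter on low counts that left 21439 genes for testing. The 4 RNA-seq libraries came from CD11b+ cells, selected from the brains of 10-month-old animals. Every animal carried the APP/PS1 transgenes, under which amyloid is deposited in the brain. The AD group (n = 2 libraries) was APP/PS1+ asrij+/+, and the AD/KO group (n = 2 libraries) was APP/PS1+ asrij-/-, with the gene removed constitutively and therefore in every cell of the animal and not in microglia alone. The labels give no sex, litter, pooling or sequencing batch and do not say whether each library is 1 animal, so that p-values measure only the spread between these libraries. Libraries are named by group and replicate number: AD1, AD2, AD/KO1 and AD/KO2.

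Complex III takes electrons from ubiquinol, passes them through cytochrome b, the Rieske iron-sulfur protein and cytochrome c1 to cytochrome c, and moves protons out of the mitochondrial matrix. It works as a dimer, is built around the mitochondrially encoded cytochrome b, and is finished when Bcs1l inserts the Rieske protein. Ociad1 is a protein of the inner mitochondrial membrane that has been tied to the assembly of complex III, in part through the processing of cytochrome c1. Microglia, the resident phagocytes of the brain, shift between oxidative phosphorylation and glycolysis as they become activated.

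Promoter sequence, from 250 bases before to 50 bases after the annotated start, was held for 6 of the 10 members in the RefSeq table for GRCm38.p6. Uqcrc2, Uqcrb, Uqcrq and Cyc1 had no entry. The stretches before the start are shown for 3 subunits whose AD/KO values all exceeded their AD values, and for Ttc19, the member whose AD/KO values were all lower. Capitals mark CCGGAAG on the other strand (the core bound by ETS factors) in Uqcrh, TGACGTCA (the cyclic AMP response element) in Uqcrfs1, and CGCATGCG (the centre of the NRF1 palindrome) in Ttc19 and Uqcrc1. In Uqcrc1 the match lies after the start, so that a separate stretch of 30 bases shows it and the longer stretch has no capitals. For Ttc19 the window's start lies inside the annotated gene span, downstream of its outermost base.
Uqcrc1, chr9:108936398-108936647, + strand: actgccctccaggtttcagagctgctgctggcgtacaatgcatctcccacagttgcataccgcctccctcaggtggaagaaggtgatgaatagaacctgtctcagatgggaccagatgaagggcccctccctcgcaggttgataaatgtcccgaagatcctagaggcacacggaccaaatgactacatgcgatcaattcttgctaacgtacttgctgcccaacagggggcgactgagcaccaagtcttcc
Uqcrc1, chr9:108936668-108936697, + strand: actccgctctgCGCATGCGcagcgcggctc
Uqcrh, chr4:116075071-116075320, - strand: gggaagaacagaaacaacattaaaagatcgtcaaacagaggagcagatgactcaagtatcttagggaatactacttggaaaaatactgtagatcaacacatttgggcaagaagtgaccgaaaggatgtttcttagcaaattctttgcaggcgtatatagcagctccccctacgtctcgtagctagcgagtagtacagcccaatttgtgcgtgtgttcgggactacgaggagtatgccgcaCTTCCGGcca
Uqcrfs1, chr13:30545317-30545566, - strand: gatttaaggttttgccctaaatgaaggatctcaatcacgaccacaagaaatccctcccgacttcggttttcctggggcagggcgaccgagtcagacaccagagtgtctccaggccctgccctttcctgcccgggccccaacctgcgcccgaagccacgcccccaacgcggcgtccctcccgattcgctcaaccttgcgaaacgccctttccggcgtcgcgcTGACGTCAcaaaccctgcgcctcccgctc
Ttc19, chr11:62281223-62281472, + strand: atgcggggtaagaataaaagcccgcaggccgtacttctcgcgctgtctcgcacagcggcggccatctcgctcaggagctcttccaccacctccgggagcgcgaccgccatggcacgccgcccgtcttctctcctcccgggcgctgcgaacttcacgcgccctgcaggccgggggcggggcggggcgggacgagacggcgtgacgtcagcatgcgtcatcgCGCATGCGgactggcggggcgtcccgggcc

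Each of these motifs was searched on both strands of the 300-base windows, and its share among 27025 gene promoters is given as a background. CGCATGCG occurred in 1.91% of promoters and in 2 members, Uqcrc1 (from base 32 after the start) and Ttc19 (30 bases before it). CCGGAAG occurred in 9.12% of promoters and in 2 members, Uqcrh (10 bases before the start) and Bcs1l (47 bases before). TGACGTCA occurred in 1.88% of promoters and in 2 members, Uqcrfs1 (29 bases before the start) and Ttc19 (51 bases before). AAGATGGCG (YY1) and AAGGTCA (estrogen-related receptors) were in 0 of the 6 windows, against 1.49% and 4.66% of promoters. ATTGG, the CCAAT box read on the other strand, was in Lyrm7 and Uqcrh, against 37.9% of promoters. Ttc19, lower in AD/KO, and Uqcrh, higher in AD/KO, each carried 2 of the searched motifs. Whether a motif goes with the direction of a difference was not tested. A match in a window does not show that a factor binds there.

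The libraries held from 13102622 to 19810076 counts, and they differed in the markers of other cells. AD2 had the highest neutrophil list, with a mean log2 CPM (the count scaled to library size, after normalization) of 8.0 against 4.90 to 5.08 in the other libraries. The monocyte and border macrophage list was at 3.42 and 4.05 in AD and at 2.61 and 2.37 in AD/KO. Of its 10 markers 9 were lower in AD/KO, 8 of them without overlap (21.7% of all genes were), and 5 had an unadjusted p under 0.05 (5.0% of all genes did, edgeR quasi-likelihood), and the part of these cells in the members' levels was not tested. The 30 neuron and astrocyte markers summed to 2768 CPM in AD1, 7185 in AD2, 7017 in AD/KO1 and 18756 in AD/KO2. All 30 were higher in AD/KO on average, where 47.2% of all genes tested were. The 12 oligodendrocyte markers summed to 1710, 2784, 4024 and 8737 CPM in the same order, with 8 higher and 4 lower. The 19 homeostatic microglia markers, P2ry12, Tmem119 and Csf1r among them, were present in all libraries and summed to 24605, 17672, 25195 and 7640 CPM in the same order. On average 3 of them were higher in AD/KO and 16 lower. Of 11 T and NK cell markers, 8 had 0 reads in at least 1 library. Ociad1 itself was at 50.1 and 63.3 CPM in AD and at 38.8 and 32.1 CPM in AD/KO, reduced in each but not lost (log2 fold change −0.68, SE 0.29, adjusted p = 0.680 by edgeR's quasi-likelihood test). AD/KO therefore stands for the libraries labelled so throughout.

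The comparison asked whether transcripts of complex III differ between the AD/KO and AD libraries. Of the 10 members, 8 had a log2 fold change above 0, where 47.2% of all genes tested did, and 2 had one below 0. Scaling moves all genes together, so that the number above 0 moves with the share of all genes. It was 9 with DESeq2 size factors (49.8% of all genes), 10 when libraries were scaled to the homeostatic microglia markers (79.0%) and 6 when they were scaled to mitochondrial housekeeping genes (37.3%). With the neuron and astrocyte level as a covariate it was 7 (50.3%). In 6 members (Uqcrc1, Uqcrfs1, Uqcrq, Uqcrh, Cyc1 and Lyrm7) both AD/KO libraries lay above both AD libraries, as they did in 20.3% of all genes tested. In 1 member, Ttc19, both lay below, as in 21.7% of all genes, and in Uqcrc2, Uqcrb and Bcs1l the groups overlapped. The number of members that lay above stayed at 6 with DESeq2 size factors (21.5% of all genes) and with housekeeping scaling (15.7%). Scaled to the homeostatic markers, it was 1 (7.65% of all genes). These counts under other scalings were chosen after seeing the data. No member passed the test: 0 had an adjusted p under 0.05, and 0 had an unadjusted p under 0.05, where 0% and 5.0% of the 21439 genes did (edgeR quasi-likelihood with Benjamini-Hochberg over all genes). By DESeq2, 0 members passed and 0.435% of the genes with an adjusted p did. The median log2 fold change of the 10 members was 0.49 and that of all genes tested −0.05.

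**Figure D1:**
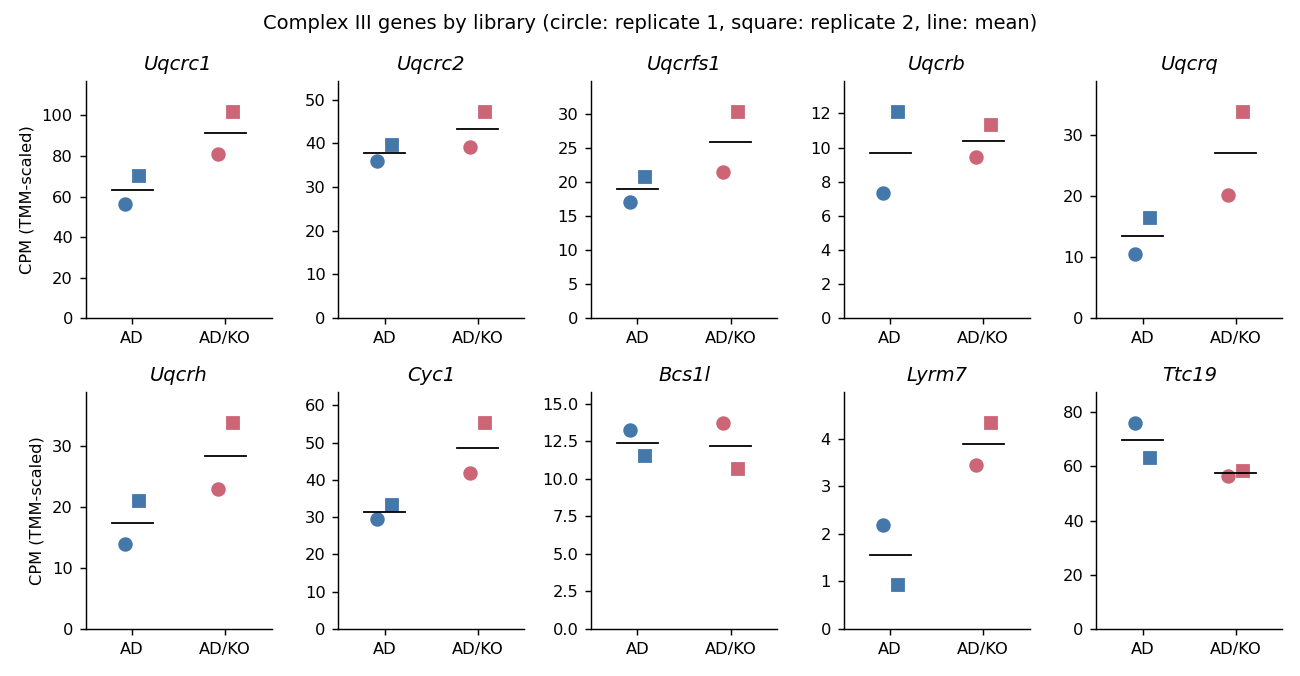
Level of each of the 10 complex III genes in CPM after library scaling, on a linear axis from 0, with 1 panel a gene; circles are replicate 1, squares replicate 2, and the line is the mean of the 2 libraries of a group. In 6 panels both AD/KO points lie above both AD points, and in the Ttc19 panel both lie below.

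Uqcrc1 (gene ID 22273, chromosome 9, 108936648 to 108949641, protein-coding) and Uqcrc2 (gene ID 67003, chromosome 7, 120635189 to 120659523, protein-coding) encode the core proteins that face the matrix and are related to the mitochondrial processing peptidase. Uqcrc1 was at 56.2 and 70.1 CPM in AD and at 80.9 and 102 CPM in AD/KO (replicates 1 and 2 of each group). The groups did not overlap, and replicate 2 was the higher library in both. The difference was 0.53 on the log2 scale (SE 0.30). Uqcrc2 was at 35.9 and 39.5 CPM in AD and at 39.2 and 47.2 CPM in AD/KO, which differ by 0.20 on the log2 scale (SE 0.28). Its lower AD/KO library lay just under the higher AD library. With housekeeping scaling its difference was −0.0021, and the median of all genes was −0.23. The difference of Uqcrc2 was 0.13 without AD1, 0.34 without AD2, 0.39 without AD/KO1 and 0.058 without AD/KO2. The transcripts of the 2 core proteins, which pair in the complex, thus had estimates of 0.53 and 0.20, and the gap between these was not tested. Neither estimate exceeded its error by enough to be called (adjusted p = 0.680 for Uqcrc1 and 0.788 for Uqcrc2, edgeR quasi-likelihood). Uqcrc2 shares 504 bases, 19.7% of its exons, with Pdzd9 on the other strand, and whether the counting used strand is not given in the sources used here; Pdzd9 itself had from 11 to 46 reads.

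The redox subunits are cytochrome c1 and the Rieske protein. Cyc1 (gene ID 66445, chromosome 15, 76343513 to 76346260, protein-coding), which encodes cytochrome c1, was at 29.5 and 33.2 CPM in AD and at 41.9 and 55.4 CPM in AD/KO. All AD/KO values were above the AD values, and the 2 AD libraries were close to each other. The log2 fold change was 0.63 (SE 0.30, adjusted p = 0.680, edgeR quasi-likelihood), and it was 0.42 without AD/KO2. Uqcrfs1 (gene ID 66694, chromosome 13, 30540312 to 30545316, protein-coding), which encodes the Rieske iron-sulfur protein, was at 17.0 and 20.7 CPM in AD and at 21.4 and 30.2 CPM in AD/KO. AD2 and AD/KO1 were nearly level, so that the separation of its groups was narrow. Its log2 fold change was 0.45 (SE 0.34, adjusted p = 0.683, edgeR quasi-likelihood), and it was 0.18 without AD/KO2 and 0.75 without AD/KO1. The third redox subunit, cytochrome b, is transcribed from mitochondrial DNA. CYTB was at 1268 and 3644 CPM in AD and at 3672 and 5699 CPM in AD/KO. Of its 4 libraries, AD1 lay farthest from the rest, and the share of all mitochondrially encoded reads was likewise lowest there, at 1.39% against 3.31% to 4.77%. The log2 fold change of CYTB was 0.93, with an SE of 0.89.

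The small subunits have no redox centre and surround the core. Uqcrq (gene ID 22272, chromosome 11, 53427922 to 53430831, protein-coding), which contacts cytochrome b, was at 10.5 and 16.4 CPM in AD and at 20.1 and 33.7 CPM in AD/KO. Its groups did not overlap, yet AD/KO2 stood well above AD/KO1. Its log2 fold change of 1.0 (SE 0.43, adjusted p = 0.680, edgeR quasi-likelihood) was the highest among the 7 subunits and was 0.58 without AD/KO2. Uqcrh (gene ID 66576, chromosome 4, 116066965 to 116075070, protein-coding), the acidic hinge protein that helps cytochrome c1 meet cytochrome c, was at 13.8 and 20.9 CPM in AD and at 22.9 and 33.7 CPM in AD/KO. It did not overlap between groups and differed by 0.70 on the log2 scale (SE 0.38). The difference was 0.40 without AD/KO2, 0.44 without AD1 and 1.10 without AD2. Uqcrb (gene ID 67530, chromosome 13, 66900576 to 66905350, protein-coding), a subunit at the ubiquinone-binding side, was the exception at 7.32 and 12.1 CPM in AD and 9.42 and 11.3 CPM in AD/KO. Its AD libraries enclosed both AD/KO libraries, and its log2 fold change was 0.09 (SE 0.43). With housekeeping scaling it was −0.097, and the median of all genes was −0.23. The counts of Uqcrb are uncertain, because its transcript matches the pseudogenes Gm16089, Gm2962 and Gm5457 at 97.6% to 98.2% identity over 333 to 336 bases; these had at most 24 reads in a library.

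The other small subunits were examined as genes outside the 10. Uqcr10 was at 5.0 and 11.5 CPM in AD and at 12.3 and 19.6 CPM in AD/KO. Uqcr11 was at 10.5 and 18.6 CPM in AD and at 21.6 and 39.3 CPM in AD/KO. Both groups were separate in each gene, with log2 fold changes of 0.94 (SE 0.55) for Uqcr10 and 1.06 (SE 0.48) for Uqcr11, close in value to that of Uqcrq. In the main fit Uqcrq, Uqcrh, Uqcr10 and Uqcr11 had larger estimated differences than the core proteins and the Rieske protein, and Uqcrb did not. Cyc1, at 0.63 (SE 0.30), lay close to Uqcrh, at 0.70 (SE 0.38). The order changed with the fit. With the neuron and astrocyte level as a covariate, Uqcrh was at 0.14, Uqcrc1 at 0.21 and Cyc1 at 0.35. The differences between these genes were not tested.

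The assembly factors did not share a direction. Bcs1l (gene ID 66821, chromosome 1, 74588289 to 74592443, protein-coding), the AAA-type translocase that carries the folded Rieske protein across the inner membrane, was at 13.3 and 11.5 CPM in AD and at 13.7 and 10.7 CPM in AD/KO. The AD/KO libraries enclosed both AD libraries, and replicate 1 was the higher library in both, the opposite of Uqcrc1. Its log2 fold change was −0.02 (SE 0.35), or 0.70 with homeostatic scaling. Ttc19 (gene ID 72795, chromosome 11, 62281429 to 62331879, protein-coding), which helps clear fragments of the Rieske protein after it has been inserted, was at 76.1 and 63.2 CPM in AD and at 56.5 and 58.4 CPM in AD/KO. Both AD/KO libraries were below both AD libraries, by 0.28 on the log2 scale in the fit (log2 fold change −0.28, SE 0.27, adjusted p = 0.722, edgeR quasi-likelihood). It was −0.14 without AD1 and −0.18 without AD/KO1. Scaling to the homeostatic microglia markers turned that direction, to 0.57, while the median of all genes moved to 0.72.

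Lyrm7 (gene ID 75530, chromosome 11, 54826866 to 54860921, protein-coding), the chaperone that holds the Rieske protein in the matrix before insertion, had the highest log2 fold change of the 10, at 1.33 (SE 0.65, adjusted p = 0.680, edgeR quasi-likelihood). It rested on 30 and 15 reads in AD and 66 and 80 reads in AD/KO, or 2.17, 0.92, 3.43 and 4.33 CPM. The groups did not overlap, and AD2 was the low library, so that the value was 0.90 without it and 2.07 without AD1. One stretch of 123 bases of its transcript matches Glmp at 95.1% identity.

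**Figure D2:**
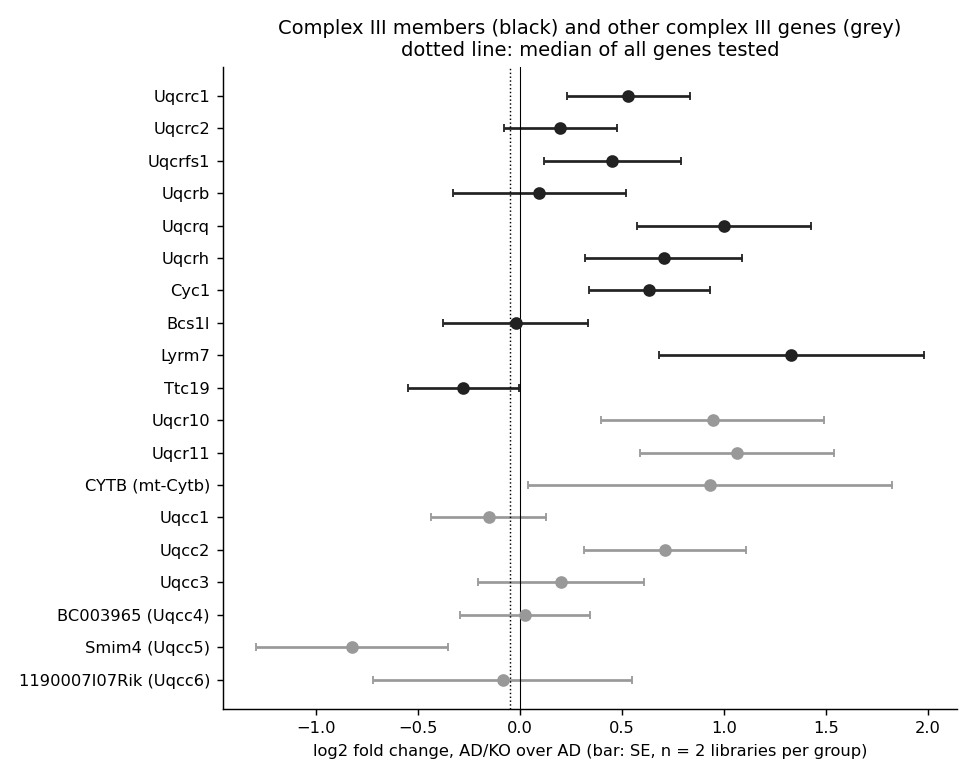
Log2 fold change of AD/KO over AD (edgeR) for the 10 members (black) and 9 other complex III genes (grey), with bars of 1 SE, n = 2 libraries per group; the dotted line is the median of all genes tested, −0.05. Uqcrq, Uqcrh, Uqcr10 and Uqcr11 lie between 0.70 and 1.06, Cyc1 lies at 0.63, Bcs1l at −0.02 and Ttc19 at −0.28.

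Further assembly factors of complex III also differed from each other. Uqcc1 and Uqcc2 hold newly made cytochrome b, and Uqcc3 acts in the next step. Uqcc2 was at 9.27 and 13.6 CPM in AD and at 15.3 and 22.2 CPM in AD/KO (log2 fold change 0.71, SE 0.40), whereas its partner Uqcc1 was at 38.7 and 30.8 CPM and at 31.6 and 30.8 CPM (log2 fold change −0.15, SE 0.28). Smim4, also named Uqcc5, was at 9.71 and 7.79 CPM in AD and at 6.19 and 3.68 CPM in AD/KO, the lowest log2 fold change of this list at −0.82 (SE 0.47). Uqcc3 differed by 0.20, BC003965 (Uqcc4) by 0.03 and 1190007I07Rik (Uqcc6) by −0.09. Of these 9 genes, cytochrome b and the 2 small subunits included, 6 were higher (47.2% of all genes tested were) and 3 lower. Without overlap 5 were higher and 1 was lower, against 20.3% and 21.7% of all genes. The median was 0.20. With housekeeping scaling it was 0.012, and that of all genes was −0.23. None passed, with an adjusted p of 0.680 or more for each (edgeR quasi-likelihood).

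Levels were compared between genes as CPM per kilobase of exon, a scale meant to set genes of different length side by side. The length was the union of all annotated exons, which can exceed that of a transcript. For Lyrm7 it was 5050 bases, and 1 of its transcripts has 3431. Ranks between genes therefore depend in part on the annotation. In AD/KO2, Uqcrh was at 27.3, Cyc1 at 25.7, Uqcrc1 at 24.6 and Uqcrfs1 at 22.2. In AD1 the same genes were at 11.2, 13.7, 13.6 and 12.5, and Ttc19 was above all of them at 16.3. Ttc19 held rank 1 of 10 in that library and rank 7, 6 and 8 in AD2, AD/KO1 and AD/KO2. Lyrm7 held rank 10 in every library, with 0.18 to 0.86, and Bcs1l held rank 8 or 9, with 4.87 to 6.27. On this scale the transcripts of both factors were below those of the 7 subunits, except that Uqcrq, at 5.74, was below Bcs1l in AD1. Each subunit was also set against the mean log2 CPM of the 7 subunits in the same library. On this relative scale Uqcrq was at −0.89 and −0.66 in AD and at −0.46 and −0.15 in AD/KO, while Uqcrc2 was at 0.88 and 0.61 in AD and at 0.50 and 0.33 in AD/KO. Uqcrh was at −0.50 and −0.31 and at −0.27 and −0.15, and Uqcrb at −1.41 and −1.10 and at −1.55 and −1.73. In these 4 subunits the groups did not overlap. How often all genes separate on this scale was not computed, so that the count has no background and is not a result. Replicates of 1 group also differed, and for Uqcrc2, Uqcrq and Uqcrh in the same direction in both groups. The groups overlapped in Cyc1 (0.60 and 0.36 in AD, 0.60 and 0.56 in AD/KO), in Uqcrfs1 (−0.20 and −0.32, −0.37 and −0.31) and in Uqcrc1, which lay between 1.43 and 1.55. These ratios do not depend on how libraries are scaled, and they were not tested.

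The levels of 6 of the 10 members, all subunits, were lowest in AD1 and highest in AD/KO2, the ends of the neuron and astrocyte level, as were those of 31.1% of all genes tested. Uqcrb, which was highest in AD2, and the assembly factors Bcs1l, Lyrm7 and Ttc19 did not have this order. Within AD, replicate 2 exceeded replicate 1 by 0.64 on the log2 scale for Uqcrq and 0.60 for Uqcrh, and within AD/KO by 0.74 and 0.56, against 1.0 and 0.70 between the groups. With the neuron and astrocyte level as a covariate, the log2 fold changes were 0.31 for Uqcrq, 0.14 for Uqcrh, 0.35 for Cyc1, 0.21 for Uqcrc1 and 0.06 for Uqcrfs1, in a fit that has 3 coefficients for 4 libraries. Lyrm7 was at 1.77 and Ttc19 at −0.16 in that fit. In bulk RNA, more cells of a type and more transcript per cell cannot be told apart.

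**Figure D3:**
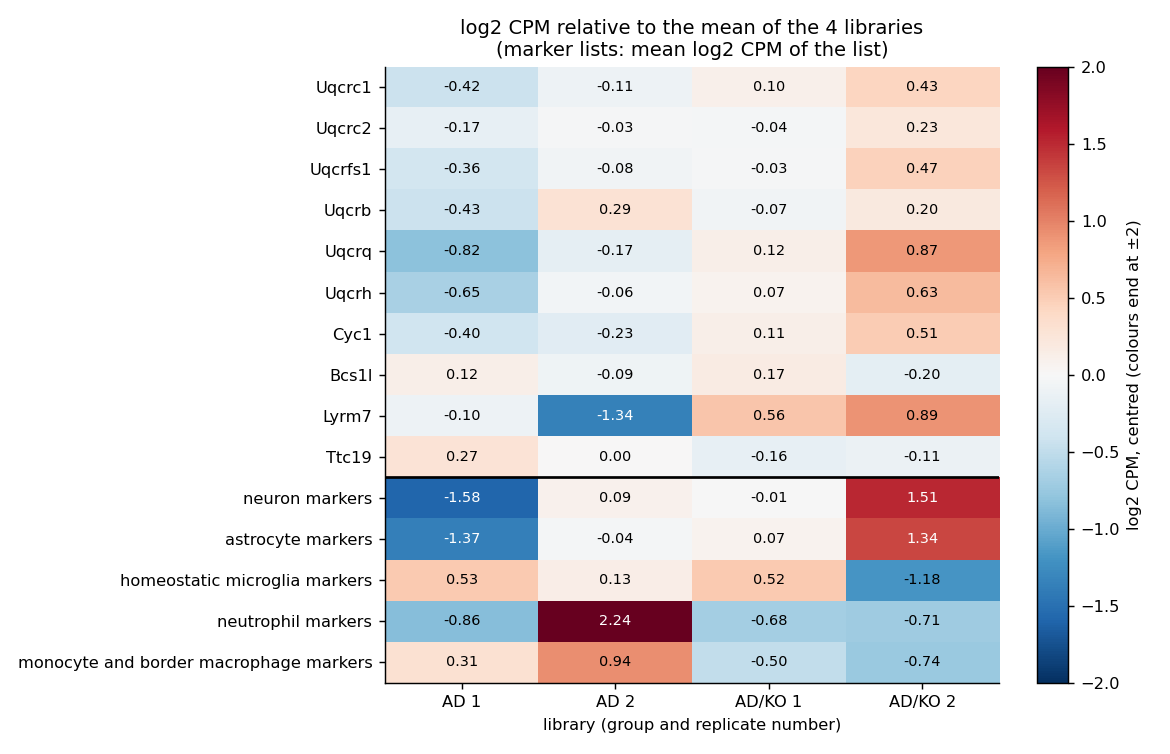
Log2 CPM of each member, and mean log2 CPM of 5 marker lists, relative to the mean of the 4 libraries; red is above and blue below the mean, and colours end at ±2. Uqcrq runs from −0.82 in AD1 to 0.87 in AD/KO2, and the neuron list from −1.58 to 1.51, while Bcs1l and Ttc19 show no such gradient.

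Next, 4 lists describe the surroundings of complex III. Among 10 genes of cytochrome c and of enzymes that feed or neighbour the quinone pool, 7 were higher and 3 lower. Of all genes tested, 47.2% were higher. The median of the 10 was 0.43, and 4 of them were higher and 1 lower without overlap. Prodh, proline dehydrogenase, had the highest value, with 15.1 and 24.6 CPM in AD and 26.4 and 51.7 CPM in AD/KO (log2 fold change 0.97, SE 0.47), and Ociad1 had the lowest. Cycs, the cytochrome c that accepts electrons from complex III, was at 11.6 and 11.7 CPM in AD and at 10.9 and 14.2 CPM in AD/KO (log2 fold change 0.11, SE 0.35). Among 13 genes of coenzyme Q synthesis, 10 were higher and 3 lower, with a median of 0.17. Without overlap 6 were higher and 3 lower, against 20.3% and 21.7% of all genes. The 3 lower genes were Pdss1 and Pdss2, which together make the polyprenyl tail, and Coq10b. With housekeeping scaling the list's median was −0.014, and that of all genes was −0.23. Pdss1 was at 18.1 and 19.4 CPM in AD and at 11.9 and 8.61 CPM in AD/KO (log2 fold change −0.87, SE 0.35). Coq9, a lipid-binding member of the synthesis complex, was at 16.4 and 21.0 CPM in AD and at 25.7 and 39.5 CPM in AD/KO (log2 fold change 0.80, SE 0.36). Of these genes, 0 passed, each with an adjusted p of at least 0.680 (edgeR quasi-likelihood).

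Among 16 genes of protein import, maturation and iron-sulfur assembly, 10 were higher and 6 lower, where 47.2% of all genes tested were higher. Without overlap 6 were higher and 2 lower, against 20.3% and 21.7% of all genes. The list's median was 0.15. With housekeeping scaling it was −0.031, and that of all genes was −0.23. The list ran from Immp2l, a subunit of the inner membrane peptidase, at −0.52 (SE 0.51) to Glrx5, a glutaredoxin of iron-sulfur transfer, at 0.54 (SE 0.41). Hccs, the lyase that attaches haem to cytochrome c1, was at 12.5 and 13.6 CPM in AD and at 14.1 and 12.8 CPM in AD/KO, and Phb2, a prohibitin, was at 34.7 and 35.7 CPM and at 41.7 and 36.1 CPM. Cycs, Pdss2, Coq10b, Hccs and Phb2 were named after their values had been seen. A list of 17 mitochondrial housekeeping genes outside the respiratory chain, such as Cs and Vdac1, had a median of 0.14, with 12 higher and 5 lower. Of these 17 genes, 4 were higher and 3 lower without overlap.

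The other complexes were used for comparison. The 36 nuclear complex I subunits had a median of 0.52 on the log2 scale with 35 higher, the 4 complex II subunits 0.42 with 4 higher, the 11 nuclear complex IV subunits 0.86 with 11 higher, and the 16 complex V genes 0.55 with 16 higher. The 7 complex III subunits alone had a median of 0.53 with 7 higher. Of all genes tested, 47.2% were higher. Without overlap between the groups, 26 of 36, 4 of 4, 8 of 11, 10 of 16 and 5 of 7 were higher, in the order of complexes I, II, IV, V and III, against 20.3% of all genes. The 7 subunits thus had the direction of most genes of the other complexes. The 2 members below 0 were the assembly factors Ttc19 and Bcs1l, the latter at only −0.02 (SE 0.35). The third assembly factor, Lyrm7, had the highest value of the 10. With housekeeping scaling 32 of 36, 3 of 4, 11 of 11, 14 of 16 and 5 of 7 were above 0 in the same order, against 37.3% of all genes. Across these lists 0 genes passed after adjustment, and 3 genes had an unadjusted p under 0.05, as 5.0% of all genes did: Ndufb9 and Ndufb10 of complex I and Cox6a1 of complex IV.

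**Figure D4:**
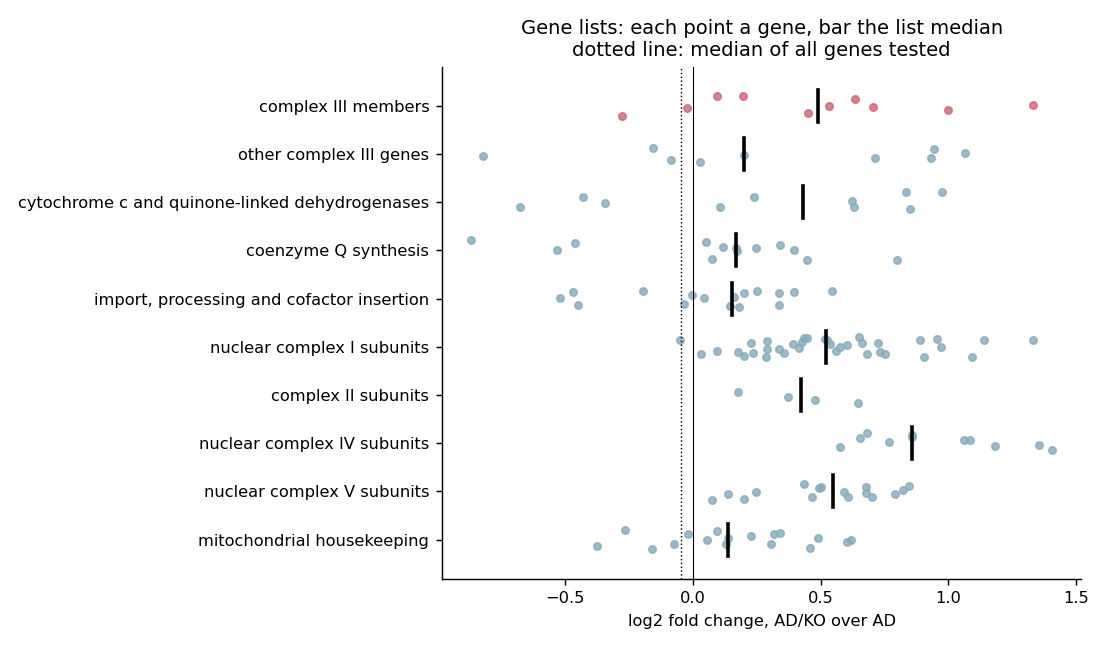
Log2 fold change of AD/KO over AD for every tested gene of 10 lists, with each point a gene and the bar the list's median; the dotted line is the median of all genes tested. The complex III members (red), 7 subunits and 3 assembly factors, have a median of 0.49. All 7 subunits lie above 0, and 2 of the assembly factors lie below it. The complex IV list, of subunits only, lies wholly above 0 with a median of 0.86.

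As a share of the summed CPM of nuclear respiratory chain genes (the 10 members and 67 genes of complexes I, II, IV and V), the 10 members took 14.5% and 12.1% in AD and 11.6% and 10.5% in AD/KO. Both AD/KO libraries were below both AD libraries, at 11.0% ± 0.760 (SD, n = 2) against 13.3% ± 1.68 (SD, n = 2). The difference was −2.28 percentage points. An exact two-sided permutation test over the libraries gave p = 0.333, which is the smallest p that 2 against 2 libraries allow. For the 7 subunits alone the share was 9.92% and 9.22% in AD and 9.06% and 8.66% in AD/KO, a difference of −0.71 percentage points, smaller than with the 3 assembly factors included, of which Ttc19 had the highest CPM. The 10 members leave out the subunits Uqcr10 and Uqcr11, and the lists of the other complexes hold subunits and, for complex V, the inhibitor Atpif1, but no assembly factors. For all 9 nuclear subunits, a set chosen after seeing the data, the share was 10.7% and 10.4% in AD and 10.2% and 10.1% in AD/KO, a difference of −0.39 percentage points. These shares were lowest in AD/KO2 and highest in AD1, again the ends of the neuron and astrocyte level, and the part of that level in the share was not tested.

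**Figure D5:**
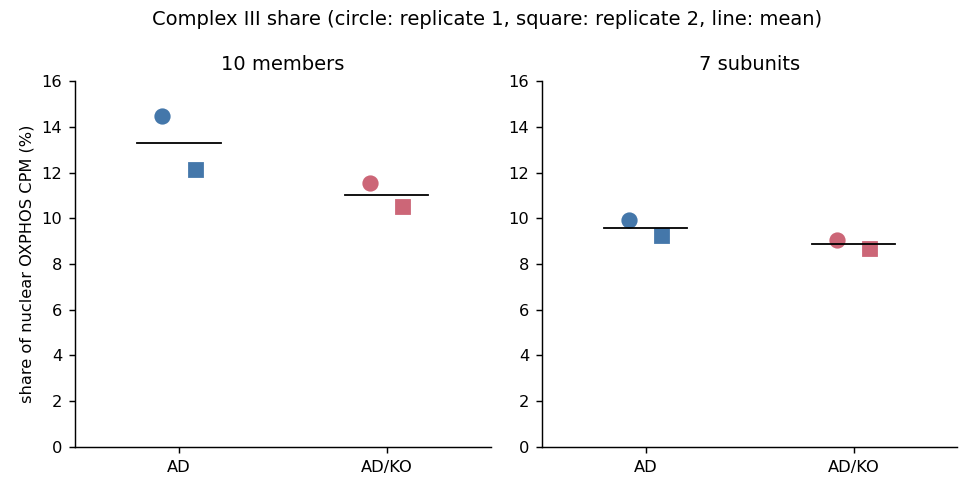
Summed CPM of complex III genes as a percentage of the summed CPM of these genes and 67 nuclear genes of complexes I, II, IV and V, for the 10 members (left) and the 7 subunits (right); circles are replicate 1, squares replicate 2, lines group means. The left share runs from 14.5% in AD1 to 10.5% in AD/KO2, and the right share from 9.92% to 8.66%.

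The genes most like the members were sought among 13751 genes with a mean of at least 5 CPM, by the root mean square distance of their centred log2 CPM over the 4 libraries from the mean pattern of the 10 members. The nearest was Sdha, the flavoprotein of complex II, at 128 and 140 CPM in AD and 166 and 207 CPM in AD/KO, with a distance of 0.0060 on the log2 scale. Gfus (0.0077), Phkg2 (0.014), Znrf1 (0.017) and Macrod1 (0.017) followed. With only 4 libraries, many genes can lie close to any pattern.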

How the data were processed

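RNA was measured in 4 libraries of CD11b+ brain cells. The authors deposited whole-number read counts per gene symbol, 1 table per library, not normalized. Per the submitters' processing notes, mm10, FastQC, HISAT2, SAMtools, featureCounts, Subread and DESeq2 1.30.0 were used; their settings, strand use and handling of multiply mapped reads are not given in the sources used here. Per the labels' protocols, rRNA was removed and a stranded kit was used. No count stood in 11 lines of every file. All 49993 symbols matched RefSeq for GRCm38.p6, the source of coordinates (counted from 1) and promoters. Exon lengths, the union of all exons, came from GENCODE M21, and near-identical transcripts from BLAST 2.17.0 (at least 95% identity over 100 bases).

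The counts were tested with edgeR 4.0.16 in R 4.3.3: filterByExpr (minimum count 10, minimum total 15), TMM scaling, and the quasi-likelihood F-test without covariates on all 4 libraries, with Benjamini-Hochberg adjustment over 21439 genes and a threshold of 0.05. CPM is the count scaled to library size, after TMM. The standard error is the log2 fold change divided by the square root of F. Marker lists are means of log2 CPM with a prior count of 2, or sums of CPM. Depth limits the low genes: at these totals Lyrm7 has at most 80 reads. Counts carry no molecular identifiers, so that SDs and SEs, not counting intervals, are given.

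The members and gene lists were chosen with earlier results of these data known. The named genes are the 10 members, Ociad1, the highest and lowest gene of each of 4 pathway lists, and the 5 genes nearest the members' mean pattern; others were named after their values were seen. Alternatives were DESeq2 1.42.0, DESeq2 size factors, no filter, a mean of at least 1 CPM, the replicate number as a block, scaling to homeostatic microglia markers or to mitochondrial housekeeping genes, the neuron and astrocyte level as a covariate, and leaving out each library.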

Additional observations from a re-analysis of the deposited data

How the results depend on the processing

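The edgeR quasi-likelihood test called 0 genes (1072 had an unadjusted p under 0.05), and likewise 0 with DESeq2 size factors, either filter, either scaling list and the covariate. DESeq2 called 86 genes, 0 of them members, and leaving out 1 library gave 0 to 721 (721 without AD2, 49 without AD1, 0 members in each); the lone library of a group is there assumed to vary like those of the other group, which alone give the spread. With the replicate number as a block, 4333 genes were called (20.2%; 13.4% as higher), among them Uqcrq (log2 fold change 0.99, adjusted p = 0.0125), Uqcrh (0.71, 0.0342) and Cyc1 (0.62, 0.0429, all edgeR quasi-likelihood). Nothing in the labels ties same-numbered libraries to 1 litter or batch. Their deviations from the group means correlated at 0.68 across genes, and neuron and astrocyte markers were higher in AD2 than AD1 and in AD/KO2 than AD/KO1.

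Of 120 values of single members under alternatives, 104 kept both sign and call, 3 passed it (the block) and 13 changed direction, all in 4 genes with small differences. Uqcrc2 was at −0.0021 with housekeeping scaling and −0.0046 with the covariate. Uqcrb was at −0.097 with housekeeping scaling and −0.36 with the covariate, and ran from −0.22 (without AD1) to 0.57 (without AD2) with 1 library left out, at −0.044 without AD/KO2. Bcs1l was at 0.019 with DESeq2 and with its size factors, 0.70 with homeostatic scaling, and 0.25 with the covariate, and ran from −0.15 (without AD/KO1) to 0.15 (without AD/KO2), at 0.081 without AD1. Ttc19 was at 0.57 with homeostatic scaling. The cause was not tested.

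Homeostatic scaling moved the median of all genes to 0.72 and those of the lists to 1.38 (members), 1.0 (other complex III genes), 1.35 (cytochrome c and quinone-linked), 0.95 (coenzyme Q), 0.94 (import), 1.35 (complex I), 1.27 (complex II), 1.84 (complex IV), 1.41 (complex V) and 1.06 (housekeeping). The number of members higher in both AD/KO libraries, an alternative chosen after seeing the data, was then 1 (7.65% of all genes), against 6. With the covariate the medians were 0.17 (members), 0.015 (cytochrome c and quinone-linked), 0.058 (coenzyme Q), 0.17 (complex I), 0.26 (complex II), 0.25 (complex IV) and 0.13 (complex V). With housekeeping scaling, under which the median of all genes was −0.23, they were 0.29 (members), 0.22 (cytochrome c and quinone-linked), 0.012 (other complex III genes), −0.014 (coenzyme Q), −0.031 (import) and 0.23 (complex II). For the share of respiratory chain reads, the 7 subunits alone gave −0.71 and the 9 nuclear subunits, added after seeing the data, −0.39.

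Leaving out 1 library gave medians of 0.27 (without AD/KO2) to 0.75 (without AD/KO1) for the members, 0.13 to 0.69 for the cytochrome c and quinone-linked list, 0.079 to 0.24 for coenzyme Q, 0.29 to 0.85 for complex I, 0.33 to 0.58 for complex II, 0.49 to 1.53 for complex IV, 0.29 to 0.85 for complex V, 0.14 to 0.41 for the other complex III genes, 0.082 to 0.22 for import and 0.065 to 0.31 for housekeeping. The share differed by −3.47 to −1.08 percentage points, and 6 to 8 members were higher in AD/KO without overlap: 6 without AD1 (26.5% of all genes), 8 without AD2 (41.3%), 7 without AD/KO1 (41.1%) and 7 without AD/KO2 (28.6%).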
